A study of Mus musculus with 6 samples.

Results

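The transcripts of 10 genes of mitochondrial fusion, fission and mitophagy were followed in whole kidney RNA of cisplatin-treated and control wild-type mice: Mfn1, Mfn2, Opa1, Oma1, Yme1l1, Dnm1l, Fis1, Pink1, Bnip3l and Fundc1. They were taken by symbol from a table of 19087 genes, and all 10 of 10 were found and passed the filter on low counts. The cisplatin group held 3 kidney libraries from wild-type mice injected with cisplatin into the peritoneal cavity to cause acute kidney injury, and the control group held 3 kidney libraries from wild-type mice labelled as controls. The series as a whole concerns sensitivity to such injury under a high-fat diet, but the labels of these 6 samples name no diet, dose, time after injection, age or sex. Nor do they state whether the 3 libraries of a group are 3 animals, and the spread behind each p-value may therefore be technical in part.

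Mitochondria form a network that is joined by fusion and cut by fission, and damaged pieces are removed by mitophagy, a selective form of autophagy. The mitofusins Mfn1 and Mfn2 join outer membranes, Opa1 joins inner membranes, and the inner membrane proteases Oma1 and Yme1l1 cut Opa1 into its long and short forms. The dynamin Drp1, encoded by Dnm1l, divides mitochondria, and Fis1 is an outer membrane protein of the fission machinery. Pink1 is the kinase that marks damaged mitochondria for removal, whereas Bnip3l (also called Nix) and Fundc1 are outer membrane receptors that bind autophagosomes directly. The proximal tubule is among the tissues richest in mitochondria, and its cells take up cisplatin.

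Of the 10 transcripts, 5 fell in cisplatin kidneys, namely Pink1, Opa1, Mfn1, Fis1 and Bnip3l, and 0 rose. A gene was called when its p-value from edgeR's quasi-likelihood test, adjusted over all genes, was under 0.05. Of all 14392 genes tested, 22.2% were called lower and 23.1% higher. The call of Bnip3l held in only 4 of 13 alternative analyses, and those of Pink1, Opa1, Mfn1 and Fis1 in all 13. The falls were moderate, the largest being that of Pink1 to 0.57 of its control level. Dnm1l alone had a positive log2 fold change, but with scaling to library size Oma1 and Yme1l1 were also slightly above 0. Levels below are counts normalized to the library (CPM), and changes are log2 fold changes of cisplatin over control with their standard error (SE).

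Sequence upstream of the annotated starts is shown for the 5 genes in which it held a match to the motif of NRF1 or of the ETS factor GABPA, both known as regulators of nuclear genes for mitochondrial proteins. The letters searched on both strands were GCGC, any base and TGCGC for NRF1 and CCGGAAGT for ETS. Each line gives the 100 bases just before a start listed in RefSeq (GRCm38.p6), with the match in capitals. Bases run 5′ to 3′ on the gene's strand. The listed start can differ from the first base of the gene span given below. The Oma1 stretch lies wholly inside its gene span, and those of Mfn1 and Opa1 run into theirs. Pink1 lies on the minus strand at chr4:138326297-138326396, and the others on the plus strand, Opa1 at chr16:29579234-29579333, Oma1 at chr4:103313746-103313845, Mfn1 at chr3:32529382-32529481 and Fis1 at chr5:136953175-136953274.
Pink1: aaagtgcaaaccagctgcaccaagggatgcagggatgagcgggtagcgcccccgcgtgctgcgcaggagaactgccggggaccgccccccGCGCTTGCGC
Opa1: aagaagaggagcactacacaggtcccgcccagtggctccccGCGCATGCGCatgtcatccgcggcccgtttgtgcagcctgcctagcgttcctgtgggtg
Oma1: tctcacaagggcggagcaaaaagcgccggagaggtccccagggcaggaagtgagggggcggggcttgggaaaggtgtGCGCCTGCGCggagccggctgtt
Mfn1: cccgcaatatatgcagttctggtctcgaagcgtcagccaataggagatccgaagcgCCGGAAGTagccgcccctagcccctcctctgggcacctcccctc
Fis1: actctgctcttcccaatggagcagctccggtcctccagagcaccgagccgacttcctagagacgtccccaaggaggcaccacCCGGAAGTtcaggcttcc
The NRF1 match began 10 bases before the listed start in Pink1, 59 in Opa1 and 23 in Oma1. The ETS match began 44 bases before the listed start in Mfn1 and 18 before the start shown for Fis1. A second listed start of Fis1 held its ETS match after the start, at base 20. Windows of 250 bases before to 50 after a start were listed for 9 of the 10 genes (all but Bnip3l). Within them, NRF1 matches were held by 3 of the 9 genes (Opa1, Oma1 and Pink1) and ETS matches by 2 (Mfn1 and Fis1). None of the 9 held AAGGTCA (the core site of oestrogen-related receptors), AAGATGGC (YY1), CACGTG (E-box), TGACGTCA (cyclic AMP response element) or GTAAACA (FOXO). Pooled, either motif was held by 4 of the 4 called genes with a window and 1 of the 5 uncalled genes, Oma1. NRF1 and ETS were the only motifs searched that matched any of the 9 genes. Pooling them therefore counts every match found, and the split by call was not tested. NRF1 matches were held by 5.19% and ETS matches by 4.31% of all 27025 genes with a window. Among all tested genes with a window, either motif was held by 15.8% of genes called lower, 15.0% of genes called higher and 19.4% of genes not called. A match is a string of letters in a window, and no binding was measured.

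Before the results, the state of the libraries is given in brief. Library totals ranged from 16725614 to 18523618 estimated counts. Cisplatin replicate 3 lay nearest the controls on the first principal component (80.5% of the variance), at 38.4 against 52.9 and 60.9 for the other cisplatin libraries and -53.0 to -48.6 for the controls. Havcr1, which encodes kidney injury molecule 1, was at 1060, 1449 and 420 CPM in cisplatin replicates 1 to 3, against 2.62, 2.14 and 3.23 CPM in control replicates 1 to 3. Of the injury markers 4 of 4 were higher, their sum being 1460 to 3214 CPM in cisplatin and 17.5 to 26.0 CPM in control.

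Markers of kidney cell types were detected in either group, and most tubule markers were lower in cisplatin. For scale, 22.2% of all genes tested were called lower and 23.1% higher. Proximal tubule markers, headed by Slc34a1, were lower in 6 of 8, and their sum was 3309 to 6833 CPM in cisplatin, highest in replicate 3, and 13829 to 14530 CPM in control. Markers of the thick ascending limb (Umod first) were lower in 3 of 4, with sums of 1434 to 3054 CPM in cisplatin, lowest in replicate 3, and 5263 to 6603 CPM in control. In the distal convoluted tubule (Slc12a3 first) 3 of 3 were lower, with 192 to 300 CPM in cisplatin and 839 to 960 CPM in control. Principal cell markers (Aqp2 first) were lower in 3 of 4 (401 to 481 CPM in cisplatin, 573 to 598 CPM in control), and intercalated cell markers (Atp6v1g3 first) were lower in 1 and higher in 1 of 4 (166 to 193 CPM in cisplatin, 184 to 219 CPM in control). Endothelial markers (Pecam1 first) were lower in 5 of 5 (228 to 268 CPM in cisplatin, 374 to 384 CPM in control), podocyte markers higher in 3 of 3 (249.9 to 298 CPM in cisplatin, 185 to 212 CPM in control), and fibroblast and pericyte markers (Pdgfrb first) higher in 2 of 5 (305 to 424 CPM in cisplatin, 262 to 299 CPM in control). Macrophage markers (Adgre1 first) were higher in 2 and lower in 1 of 5 (182 to 212 CPM in cisplatin, 139 to 182 CPM in control), and neutrophil markers (S100a8 first) higher in 3 of 4 (9.64 to 11.4 CPM in cisplatin, 7.57 to 9.94 CPM in control). T cell markers were measured in 3 of 4 cases, of which 1 passed the filter and was not called (2.02 to 3.38 CPM in cisplatin, 3.31 to 7.14 CPM in control). Erythroid markers (Hbb-bs first) were lower in 3 of 3 (0.35 to 0.56 CPM in cisplatin, 37.0 to 524 CPM in control). No marker measured was at 0 in all libraries of a group. In whole tissue, fewer cells of a type and less RNA per cell cannot be told apart, and the part of these markers in the results below was not tested.

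Of the outer membrane mitofusins, Mfn1 fell and Mfn2 did not pass the test, and the difference between their changes was not tested by a model. Mfn1 (chr3:32529443-32579225) was at 76.4, 68.6 and 78.3 CPM in cisplatin replicates 1 to 3, against 102, 102 and 99.0 CPM in control replicates 1 to 3. The groups did not overlap, and Mfn1 fell by 0.44 on the log2 scale (SE 0.07; edgeR adjusted p = 0.00201). Mfn2 (chr4:147873586-147904909) was at 135, 147 and 150 CPM in cisplatin, against 164, 155 and 164 CPM in control. Its cisplatin libraries also lay below the controls, but by less, and the log2 fold change of -0.16 (SE 0.07; 95% interval -0.33 to 0.01) did not pass (edgeR adjusted p = 0.109). Mfn1 overlaps the neighbouring gene Gnb4 by 639 bases in the annotation, and Gnb4 itself fell by 0.41 at a level of 9.05 CPM in cisplatin and 12.1 CPM in control.

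The transcript of the inner membrane fusion protein fell, while the transcripts of its proteases did not pass the test. Opa1 (chr16:29579281-29663127) was at 74.2, 71.9 and 84.2 CPM in cisplatin, against 112, 103 and 110.4 CPM in control, and fell by 0.50 on the log2 scale (SE 0.08; edgeR adjusted p = 0.00187). Groups did not overlap, and the cisplatin library nearest to control was replicate 3. Oma1 (chr4:103311875-103371869), the stress-activated protease that cuts Opa1, was at 23.3, 21.6 and 22.7 CPM in cisplatin, against 26.0, 23.9 and 24.1 CPM in control (log2 fold change -0.13, SE 0.08; 95% interval -0.31 to 0.05; edgeR adjusted p = 0.207). Yme1l1 (chr2:23155442-23199260), the constitutive protease, was at 69.9, 66.2 and 69.2 CPM in cisplatin, against 79.7, 70.0 and 71.4 CPM in control (-0.11, SE 0.08; 95% interval -0.28 to 0.07; edgeR adjusted p = 0.281). In both genes the nearest cisplatin and control libraries were close together, and with scaling to library size alone their log2 fold changes were 0.01 and 0.03. Yme1l1 overlaps Mastl by 583 bases and Oma1 a long noncoding RNA gene by 1848 bases, and whether the libraries were stranded is not stated in what was read here.

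Of the fission transcripts Fis1 fell, and Dnm1l, with a positive log2 fold change, did not pass the test. Dnm1l (chr16:16312228-16359038) was at 86.4, 91.7 and 88.2 CPM in cisplatin, against 80.4, 76.0 and 78.3 CPM in control. All 3 cisplatin libraries lay above all controls, with a log2 fold change of 0.18 (SE 0.07; 95% interval 0.03 to 0.33) that narrowly missed the threshold after adjustment over all genes (edgeR adjusted p = 0.0507). It passed with scaling to library size alone (0.32, edgeR adjusted p = 0.00808), where 32.2% of all genes were called higher. It also passed on the authors' FPKM (limma adjusted p = 0.0112 with a pseudocount of 0.1). There 4482 of 14392 genes were called higher, and the median of all genes lay 0.13 above that of the main fit. Fis1 (chr5:136953275-136966234) was at 116, 125 and 131 CPM in cisplatin, against 154, 177 and 153 CPM in control. It fell by 0.38 on the log2 scale (SE 0.09; edgeR adjusted p = 0.00839), with no overlap between groups.

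Among mitophagy genes the kinase Pink1 (chr4:138313409-138326296) changed most of the 10. Its level was 220.2, 199 and 282 CPM in cisplatin replicates 1 to 3, against 405, 425 and 408 CPM in control replicates 1 to 3. The controls lay close together, and the cisplatin libraries were spread but all far below them, with replicate 3 the highest. Pink1 fell by 0.82 on the log2 scale (SE 0.13; 95% interval -1.12 to -0.52; edgeR adjusted p = 0.00155), which is a level 43.3% lower by the fit (percent change -43.3).

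The receptor transcripts had smaller log2 fold changes than Pink1. Bnip3l (chr14:66985238-67008877) was at 93.5, 99.2 and 107 CPM in cisplatin, against 117, 114 and 121 CPM in control, and fell by 0.23 on the log2 scale (SE 0.08; edgeR adjusted p = 0.0378). That call was lost under 9 of 13 alternatives, with adjusted p between 0.00930 and 0.287 over all of them, although the groups did not overlap. Those 9 were leaving out cisplatin replicate 1 or 2 or any of the 3 control replicates (log2 fold changes of -0.19 to -0.25), scaling to library size (-0.10), the authors' FPKM at either pseudocount (-0.10 and -0.09), and the fit with a replicate block. Fundc1 (chrX:17519967-17572329), a receptor known from hypoxia-induced mitophagy, was at 26.2, 26.1 and 24.2 CPM in cisplatin, against 28.7, 28.9 and 28.3 CPM in control (-0.17, SE 0.07; 95% interval -0.33 to 0.00024; edgeR adjusted p = 0.0945).

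**Figure D1:**
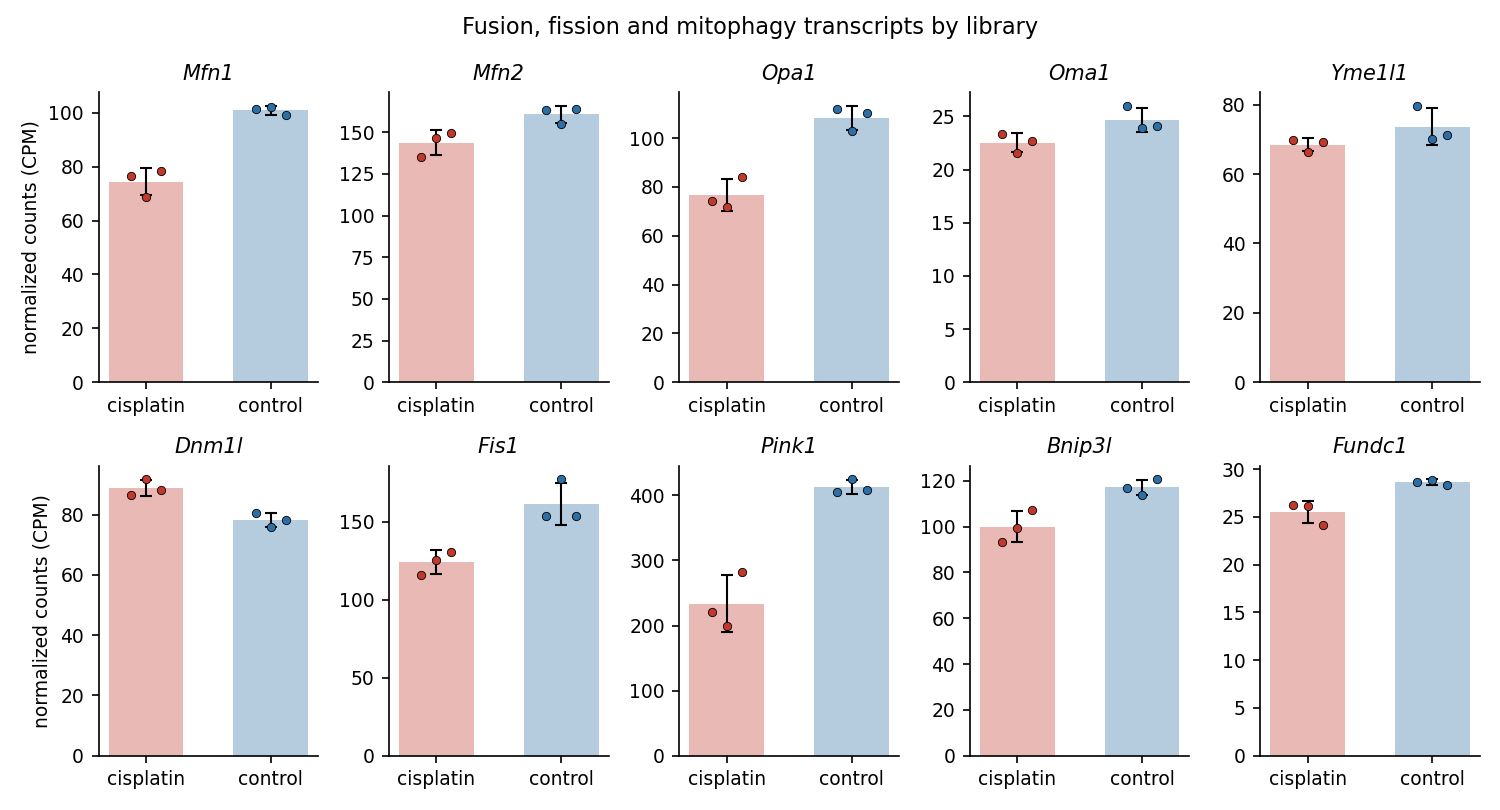
Normalized counts (CPM, linear axis from 0) of the 10 transcripts in the 3 cisplatin and 3 control libraries. Bars are group means, error bars SDs and points libraries; Pink1 shows the widest gap, with 199 to 282 CPM in cisplatin and 405 to 425 CPM in control, and with this scaling Dnm1l alone lies higher in cisplatin.

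Taken over the 10 transcripts, 9 had all cisplatin libraries below all controls and 1 had them above, whereas over all genes tested such separation was found below in 28.4% and above in 29.2%. The median log2 fold change was -0.20 over the 10 transcripts and 0.01 over all genes tested. With scaling to library size the median over all genes was 0.14 higher. With that scaling 5 of the 10 transcripts still lay wholly below the controls (Mfn1, Opa1, Fis1, Pink1 and Bnip3l) and Dnm1l wholly above, while Mfn2, Oma1, Yme1l1 and Fundc1 overlapped. Over all genes, 20.5% lay wholly below, 38.7% wholly above and 40.8% overlapped with that scaling. The calls of Pink1, Opa1, Mfn1 and Fis1 held under all 13 alternatives, with highest adjusted p of 0.0120, 0.0141, 0.0112 and 0.0452. Cisplatin replicate 3, the library with the lowest injury markers and the highest proximal tubule markers of its group, lay nearest the control mean in 6 of the 10 transcripts, the 5 called and Mfn2. It was the nearest for 53.1% of all genes tested and for 66.9% of those called lower (on the log2(CPM + 0.1) scale). Without it the log2 fold changes of Pink1, Opa1, Mfn1, Fis1 and Bnip3l were -0.98, -0.57, -0.48, -0.43 and -0.29.

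**Figure D2:**
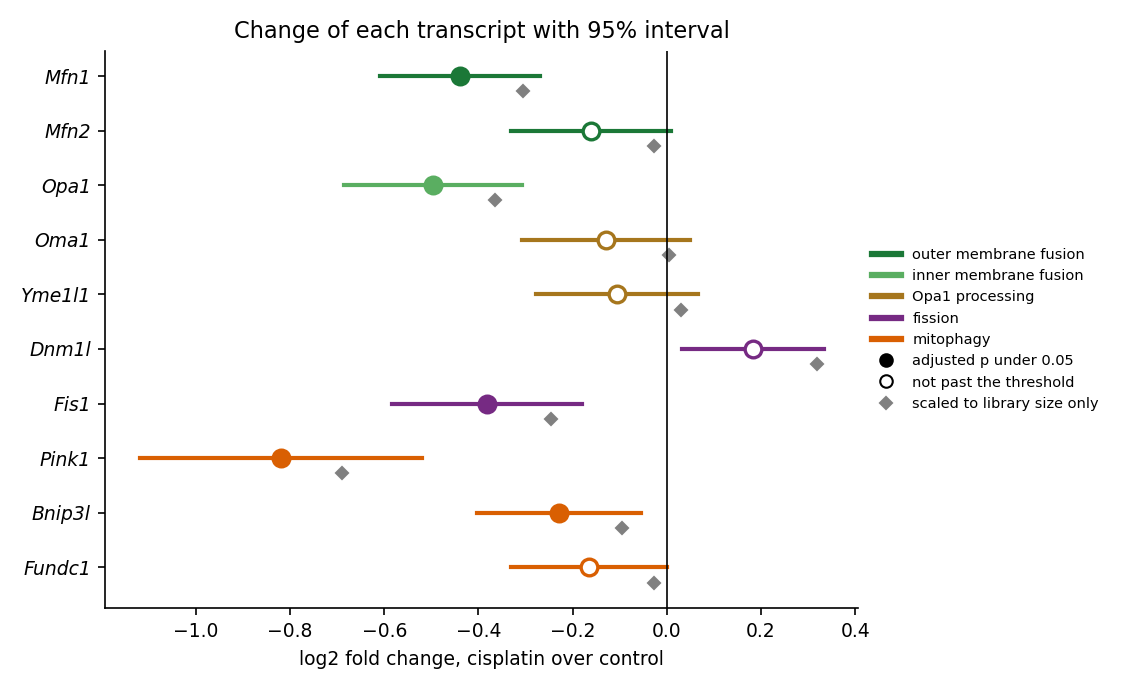
Log2 fold change of each transcript, cisplatin over control, with its 95% interval from edgeR, coloured by role, and the value with scaling to library size alone as a grey diamond. Filled circles passed an adjusted p of 0.05; the diamonds lie to the right of every circle, and those of Oma1 and Yme1l1 lie at 0.01 and 0.03.

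Per length of transcript, Fis1 and Pink1 were by far the most abundant of the 10. In the authors' FPKM, which divides by transcript length, Fis1 averaged 174 ± 8.2 in cisplatin and 207 ± 15 in control (SD, n = 3 each), and Pink1 105 ± 15 in cisplatin and 169.8 ± 2.6 in control. Next came Mfn2 (34.0 ± 1.5 in cisplatin, 34.7 ± 1.5 in control) and Bnip3l (32.8 ± 1.2 in cisplatin, 35.1 ± 1.4 in control), whose ranges overlapped in either group. Below them Dnm1l averaged 24.4 ± 1.4 FPKM in cisplatin and 19.8 ± 0.60 in control, Mfn1 17.4 ± 0.88 in cisplatin and 21.5 ± 0.21 in control, Yme1l1 15.85 ± 0.64 in cisplatin and 15.5 ± 1.2 in control, and Opa1 13.2 ± 0.42 in cisplatin and 16.6 ± 0.91 in control. The lowest levels were those of Oma1 (11.1 ± 0.44 in cisplatin, 11.7 ± 0.62 in control) and Fundc1 (10.96 ± 1.13 in cisplatin, 11.1 ± 0.75 in control), which overlapped in either group. Dnm1l stood above Mfn1 in every cisplatin library and below it in every control library, and likewise Yme1l1 stood above Opa1 in cisplatin without overlap, whereas the pair overlapped in control.

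Ratios of FPKM within a library set partners and opponents side by side. Mfn1 over Mfn2 was 0.56, 0.46 and 0.52 in cisplatin replicates 1 to 3, against 0.61, 0.65 and 0.60 in control replicates 1 to 3. Opa1 over Dnm1l, inner membrane fusion against fission, was 0.55, 0.49 and 0.58 in cisplatin, against 0.85, 0.81 and 0.85 in control. Fis1 over Dnm1l averaged 7.15 ± 0.38 in cisplatin and 10.4 ± 1.1 in control, Pink1 over Bnip3l 3.21 ± 0.43 in cisplatin and 4.84 ± 0.25 in control, and Oma1 over Yme1l1 0.70 ± 0.012 in cisplatin and 0.76 ± 0.019 in control. In these 5 ratios of FPKM the cisplatin libraries were all below the controls. In ratios of normalized counts 4 of the 5 separated likewise, but Oma1 over Yme1l1 overlapped, at 0.33 ± 0.0039 in cisplatin and 0.34 ± 0.0077 in control. The length that FPKM divides by was longer in cisplatin for Oma1, as given with the transcript lengths. How often ratios of other gene pairs separate was not counted. In FPKM, 20.4% of all single genes tested lay wholly below the controls and 38.4% wholly above. For these 5 FPKM ratios an exact permutation test (two-sided) had p = 0.1 for each, the smallest possible with 3 against 3 samples. That test could therefore not pass a threshold of 0.05 and adds nothing to the separation. Adjusted over the 6 ratios its p was 0.12, and the ratios were chosen after the values were seen. Fundc1 over Bnip3l averaged 0.34 ± 0.046 in cisplatin and 0.32 ± 0.013 in control, with overlap (adjusted exact permutation p = 0.6).

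**Figure D3:**
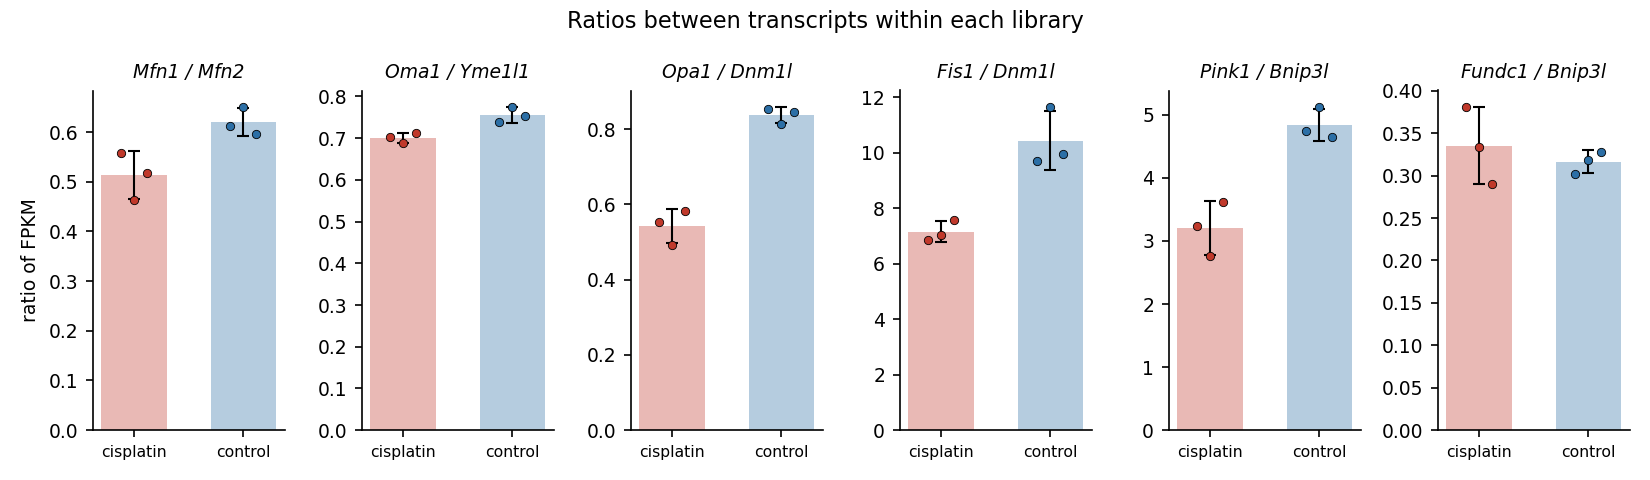
Ratio of the FPKM of paired transcripts in each library (linear axes from 0), with group means as bars, SDs as error bars and libraries as points. Opa1 / Dnm1l lies between 0.49 and 0.58 in cisplatin and between 0.81 and 0.85 in control, and Fundc1 / Bnip3l overlaps; Oma1 / Yme1l1 separates here but overlaps in normalized counts.

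A chosen list of 20 general mitochondrial genes (citrate synthase, porins, import receptors, respiratory subunits and others) served as a reference. Its genes did not change alike, with log2 fold changes from -0.80 to 0.07. Its median therefore depends on the genes chosen and does not measure mitochondria as a whole. In that list 13 of 20 were lower and 0 higher, against 22.2% lower and 23.1% higher of all genes tested. The median of the list was -0.40. Cox4i1, a cytochrome oxidase subunit with the highest FPKM of the list, averaged 608 ± 53 CPM in cisplatin and 851 ± 27 CPM in control, and Hspd1, the mitochondrial chaperonin, fell furthest (log2 fold change -0.80). The median of the 20 genes in each library, relative to the control mean, was -0.41, -0.49 and -0.28 in cisplatin replicates 1 to 3, and 0.02, 0.01 and -0.03 in control replicates 1 to 3. Relative to that median, Pink1 lay at -0.50, -0.56 and -0.26 in cisplatin, against -0.04, 0.03 and 0.01 in control, so that it lay below the median of the list in each cisplatin library. Relative to the control means, 0 of the 20 genes lay below Pink1 in cisplatin replicates 1 and 2. In replicate 3, where Pink1 was at -0.55, 4 of the 20 lay below it (Hspd1, Uqcrc2, Uqcrfs1 and Sdha). Mfn1, Opa1 and Fis1 overlapped between groups on this scale, with differences of -0.05, -0.10 and 0.01. The other 6 transcripts lay above the median of the list in each cisplatin library. Genes of the list itself lie on both sides of that median. Relative to the control means, the 20 genes ranged from -0.74 to 0.05, -0.99 to 0.03 and -0.68 to 0.14 in cisplatin replicates 1 to 3. Of the 6 transcripts, Dnm1l alone had a log2 fold change (0.18) above the highest of the 20 genes (0.07). Relative to the list median, Dnm1l lay at 0.55, 0.72 and 0.46 in cisplatin, against 0.02, -0.05 and 0.03 in control. Bnip3l differed by 0.16, Fundc1 and Mfn2 by 0.23 each, Oma1 by 0.26 and Yme1l1 by 0.29. These differences are descriptions on the log2 scale, and none was tested.

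**Figure D4:**
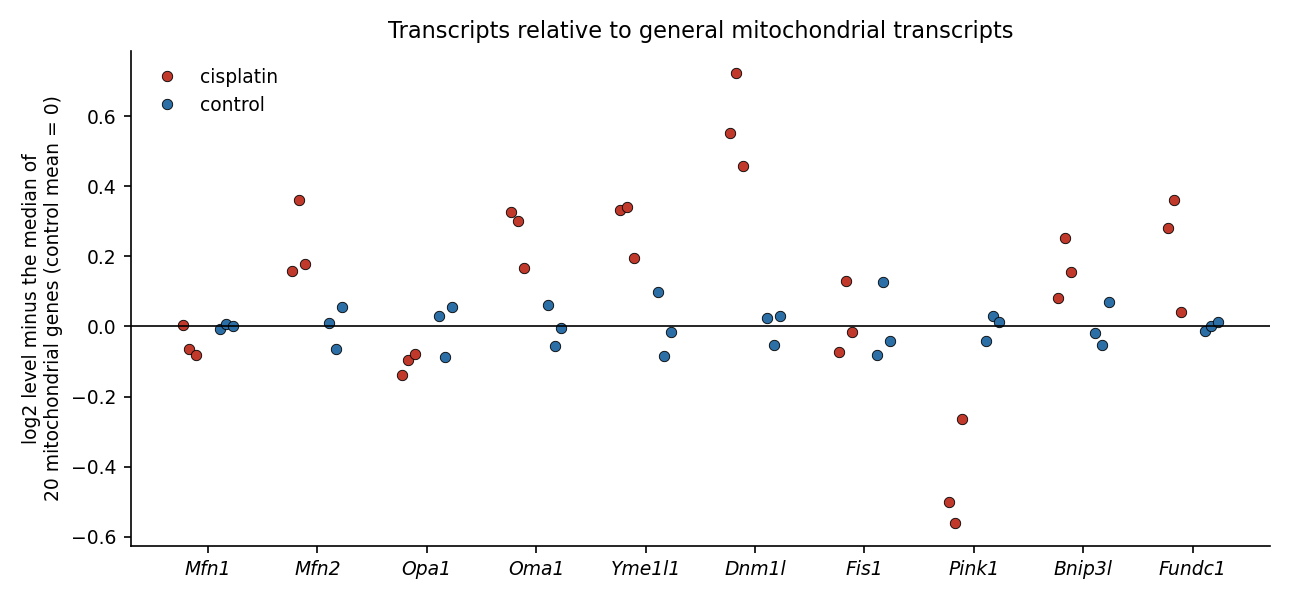
Log2 level of each transcript minus the median of 20 general mitochondrial genes in the same library, with the control mean of each gene set to 0; points are libraries. Pink1 lies between -0.56 and -0.26 in cisplatin, Dnm1l between 0.46 and 0.72, and Mfn1, Opa1 and Fis1 overlap the controls.

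Other genes of fusion and inner membrane upkeep were lower in 16 of 23 cases and higher in none, with a median of -0.30. The shares over all genes tested were 22.2% lower and 23.1% higher. Chchd6, a subunit of the MICOS complex that shapes cristae, had the largest fall, with 8.98, 10.6 and 9.02 CPM in cisplatin against 23.9, 24.6 and 19.1 CPM in control (log2 fold change -1.24; edgeR adjusted p = 0.000191). The prohibitins, Immt and Chchd3 were also among the genes that fell. Chchd10, the most abundant of the list by FPKM, averaged 506 ± 45 CPM in cisplatin and 899 ± 47 CPM in control (-0.83). The count of lower genes was 9 without cisplatin replicate 1 or 2 or control replicate 3, and 10 without control replicate 2. It was 8 with scaling to library size alone, when Parl, a rhomboid protease of the inner membrane that cuts Pink1, was called higher.

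Other fission genes showed no common direction, with 2 of 19 tested higher, 3 lower and a median of -0.07. Both counts are shares below those of all genes tested (23.1% higher, 22.2% lower). Inf2, a formin that builds actin at fission sites, was at 41.2, 58.8 and 28.6 CPM in cisplatin against 13.5, 15.4 and 16.4 CPM in control (log2 fold change 1.51; edgeR adjusted p = 0.00335). Mtfr2, a fission regulator family member, was low, at 1.84 ± 0.23 CPM in cisplatin and 0.78 ± 0.27 CPM in control (1.24, and 0.30 on the log2(FPKM + 1) scale). Mtfp1, an inner membrane fission protein, fell to 14.6 ± 1.3 CPM in cisplatin, against 27.8 ± 1.0 CPM in control (-0.93; edgeR adjusted p = 0.000151). Mtfr1 fell by 0.36 and Mff, the receptor that recruits Drp1, by 0.28 on the log2 scale. The Mff call was lost with scaling to library size alone, on the authors' FPKM and without cisplatin replicate 1 (adjusted p between 0.00523 and 0.10 over all alternatives). Mtfr1l, the most abundant by FPKM, was at 128 ± 12 CPM in cisplatin and 143 ± 4.0 CPM in control (-0.17; edgeR adjusted p = 0.143). Without cisplatin replicate 3, 7 genes of this list were lower.

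Other mitophagy genes were mixed, with 12 of 24 tested lower, 5 higher and a median of -0.25. Among all genes tested, 22.2% were lower and 23.1% higher. Calcoco1, which encodes an adaptor protein of autophagy, had the largest fall of these 24, with 68.8, 68.0 and 73.8 CPM in cisplatin against 99.7, 111 and 104 CPM in control (log2 fold change -0.58, SE 0.07; edgeR adjusted p = 0.000508). The 5 higher genes encode the adaptors Sqstm1 and Optn, their kinase Tbk1, the receptor Bcl2l13 and the phosphatase Pgam5. Optn, which links ubiquitin-coated mitochondria to autophagosomes, was at 24.0 ± 1.5 CPM in cisplatin and 16.2 ± 0.97 CPM in control (0.57; edgeR adjusted p = 0.00139). Sqstm1, which encodes p62, averaged 813 ± 55 CPM in cisplatin and 662 ± 14 CPM in control (0.30; edgeR adjusted p = 0.0370). The Sqstm1 call was lost in 5 of 13 alternatives, namely without cisplatin replicate 1, without any 1 of the controls and with a replicate block (adjusted p between 0.00214 and 0.118 over all). The count of higher genes was 1 to 3 without cisplatin replicate 1 or 2 or any 1 control. The count of lower genes was 7 without control replicate 1 and 7 on the authors' FPKM. Bnip3, the close relative of Bnip3l, was at 141, 116 and 179 CPM in cisplatin against 175, 168 and 164 CPM in control, with overlap through cisplatin replicate 3 (log2 fold change -0.22; edgeR adjusted p = 0.249).

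Core genes that build autophagosomes were mixed, with 4 of 31 higher, 10 lower and a median of -0.09. All genes tested had 23.1% higher and 22.2% lower. Atg4a, a protease that processes the LC3 family, had the largest rise, at 52.8, 54.9 and 54.1 CPM in cisplatin against 21.9, 22.2 and 21.6 CPM in control (log2 fold change 1.30, SE 0.07; edgeR adjusted p = 5.66e-06). Atg10, the conjugating enzyme for Atg12, fell to 3.75 ± 0.92 CPM in cisplatin, against 12.2 ± 0.21 CPM in control (-1.70). Gabarap, the most abundant by FPKM, averaged 486 ± 69 CPM in cisplatin and 603 ± 45 CPM in control (-0.31; edgeR adjusted p = 0.0707). Without cisplatin replicate 3 Gabarap passed (edgeR adjusted p = 0.00418), and without cisplatin replicate 1 or control replicate 1 the list had 6 lower genes.

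**Figure D5:**
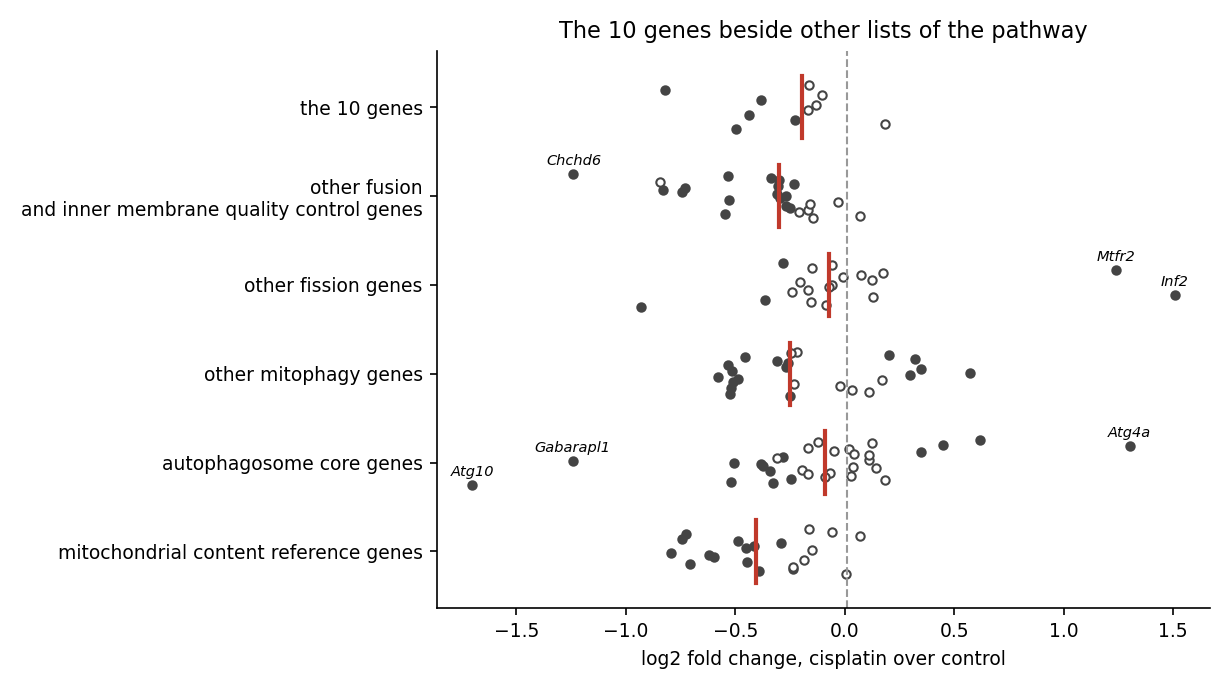
Log2 fold change, cisplatin over control, of the 10 transcripts and of the tested genes counted in the other lists, one point a gene, filled where the adjusted p was under 0.05. Red bars are list medians (-0.20 for the 10 transcripts) and the dashed line is the median of all genes (0.01); Atg10 stands lowest at -1.70 and Inf2 highest at 1.51.

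The length of transcript behind each value can be read from the deposited counts and FPKM, since a count divided by its FPKM and the library total gives the length the authors' quantification used. It was nearly constant for Pink1 (2318 nt in either group), Mfn1 (4482 nt in either group) and Mfn2 (4429 ± 1.5 nt in cisplatin, 4427 ± 1.4 nt in control). Oma1 had 2145, 2144 and 2083 nt in cisplatin replicates 1 to 3, against 2004, 1989 and 2028 nt in control replicates 1 to 3. The implied length of Oma1 was 5.84% longer in cisplatin and did not overlap between groups. Dnm1l also separated, by 1.38%, with 3818, 3818 and 3807 nt in cisplatin against 3781, 3729 and 3778 nt in control. Groups separated in 20.8% of the 7776 genes with an FPKM of at least 5 in every library, in which the median difference was 0.16% in size. Opa1 (6090 ± 163 nt in cisplatin, 6213 ± 74 nt in control) and Fundc1 (2447 ± 89 nt in cisplatin, 2469 ± 165 nt in control) varied between libraries with overlap, Opa1 from 5923 to 6296 nt and Fundc1 from 2280 to 2587 nt, ranges wider than the difference between groups in Oma1. The transcripts behind these lengths were not analysed here.

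The genes with the pattern most like that of Pink1 were Acsf3, Lrpap1 and Msrb2. Over the 6 libraries, their log2 levels relative to their own control means differed from those of Pink1 by a root mean square of 0.02, 0.03 and 0.03, the smallest of 11127 genes compared. Acsf3, a mitochondrial acyl-CoA synthetase gene, averaged 51.3 ± 8.9 CPM in cisplatin and 92.1 ± 2.3 CPM in control. Lrpap1, which encodes the chaperone of megalin, averaged 331 ± 56 CPM in cisplatin and 571 ± 18 CPM in control, and Msrb2, a mitochondrial methionine sulfoxide reductase gene, 19.5 ± 3.2 CPM in cisplatin and 34.6 ± 1.1 CPM in control. As in Pink1, replicate 3 was the highest cisplatin library in each of these genes. That likeness follows from choosing them by closeness to Pink1 over these same 6 libraries.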

How the data were processed

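Kidney RNA-seq of 3 cisplatin and 3 control libraries was used. Reads were aligned with HISAT to GRCm38.p6, per the submitters' processing notes; nothing read here names the counting program, annotation or strandedness. Per the file headers, the authors deposited estimated counts, FPKM and TPM for 19087 genes. The estimated counts deposited were whole in 66.2% to 67.7% of values per library. Counts of Mfn2, Fis1, Pink1 and Fundc1 were whole in 6 of 6 libraries, and those of Mfn1, Opa1 and Oma1 in 0 of 6. Yme1l1 had whole counts in 5, Dnm1l in 3 and Bnip3l in 2 libraries. The FPKM deposited by the authors entered alternatives, ratios and levels per length, and the TPM deposited entered no test. The control columns are named only by the letters wc, taken to mean wild-type control because the other columns name cisplatin.

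Estimated counts were rounded, filtered with filterByExpr (minimum count 10; 14392 genes left), TMM-normalized and compared with edgeR 4.0.16 (quasi-likelihood F test, robust, two-sided, group as only term, Benjamini-Hochberg over all genes) in R 4.3.3. SEs and 95% intervals were derived from the F statistic. The procedure was run on simulated counts in which few genes changed, in random directions, so that run does not bear on the choice of scaling. DESeq2 1.42.0 and limma 3.58.1 gave alternatives, and ratios were tested with SciPy 1.17.1. Replicate pairs differed by 8.30 to 50.5 times the sampling variance, so none was a copy. Between 388 and 6937 counts per library stood behind each of the 10 transcripts, so counting error was largest for Oma1 and Fundc1, which had the fewest.

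The transcripts, lists and motifs were chosen with earlier results of these data known, and the ratios, the comparison with the mitochondrial list and the implied lengths were chosen after the values were seen. Other genes were named by rule: the largest call in each direction of each list, all calls in a direction with 3 or fewer, the member with the highest FPKM, the first gene of each marker list, and the 3 nearest patterns; the other genes in the text (the prohibitins, Immt, Chchd3, Parl, Bnip3, Tbk1, Bcl2l13, Pgam5, Gnb4, Mastl, Uqcrc2, Uqcrfs1 and Sdha) were added after their values were seen. Gdap1 and Calcoco2 were under the filter. Some list genes are not reported here, and counts leave them out; no podocyte marker is named. Promoter windows came from RefSeq (GRCm38.p6).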

Additional observations from a re-analysis of the deposited data

How the results depend on the processing

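Over the 13 alternatives, 114 of 130 values of the 10 transcripts kept their direction and side of the threshold, 9 (all Bnip3l) lost the call, 3 (all Dnm1l) gained it and 4 reversed without a call: Oma1 (0.0058) and Yme1l1 (0.029) with scaling to library size, and Yme1l1 with FPKM (0.030 with a pseudocount of 0.1, 0.029 with 1). Of 403 values of the other named genes 370 stayed, 29 lost the call and 4 gained it. Library-size scaling and FPKM moved the median of all genes by 0.14 and by 0.13 or 0.09. With scaling to library size, and with FPKM at either pseudocount, 1 of the 10 transcripts was higher, and the counts were 1 higher and 8 lower for the fusion list, 5 or (FPKM) 4 higher for fission, 8 or (FPKM) 9 higher and 6 lower for autophagosome genes, 1 higher for the 20 mitochondrial genes, and with FPKM 7 lower for mitophagy. All genes gave 4632 higher and 2281 lower with library size (67.0% higher, against 51.0% of 6527 calls with TMM). DESeq2 called 3 mitophagy genes higher. The labels do not say that replicate numbers pair the samples. Correlations of same-numbered deviations were 0.03, -0.13 and -0.13, and those of differently numbered ones lay between -0.02 and 0.15. With 3 libraries per group such correlations cannot exclude pairing. With the replicate block 4 of the 10 transcripts were lower, fusion genes were lower in 10 and mitophagy genes higher in 3. Leaving out 1 library gave 4 to 5 lower and 0 higher of the 10 transcripts; for the lists it gave 9 to 15 lower for fusion, 2 to 7 lower for fission, 1 to 4 higher and 7 to 15 lower for mitophagy, and 6 to 12 lower for autophagosome genes. Without cisplatin replicate 3, Bnip3 passed (log2 fold change -0.40; edgeR adjusted p = 0.00692). Ratios of normalized counts, chosen after seeing the data, ended the separation of Oma1 over Yme1l1 and of no other pair. The causes were not tested.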
